A study of Mus musculus with 20 samples.

Results

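The genes described here are 46 genes of cell division, 30 that act in G2 phase and mitosis (G2/M) and 16 that act in late G1 and DNA replication (G1/S). They were chosen by symbol from a list made with earlier results of these data known. All 46 were found among the 48440 genes of the count table with 1 Ensembl identifier each. RNA had been sequenced from the liver and the gonadal fat pad of PKCε-deficient mice (genotype label AdEpsKO, called KO; Prkce encodes PKCε, a protein kinase) and of wild-type mice (WT), all on a C57BL/6 background. All mice ate a high fat diet over 1 week and then fasted for 6 h. Each of the 4 groups, KO liver, WT liver, KO fat and WT fat, held 5 mice and 5 libraries, 20 libraries in all. The sources used here do not expand the label AdEpsKO, so the cells in which Prkce was deleted are not given, nor are the age and sex of the mice.

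In a dividing cell, E2F factors switch on the G1/S genes when cyclin D and cyclin E kinases inactivate the retinoblastoma proteins. The products load and fire replication origins (Cdc6, Cdt1, the Mcm helicase, Gins2), make deoxynucleotides (Rrm1, Rrm2, Tyms) and clamp the polymerase to DNA (Pcna). The G2/M genes follow later, driven by B-Myb, FoxM1 and the MuvB complex, and are held down in resting cells by the DREAM complex. They encode cyclins A and B with Cdk1, the kinetochore and spindle checkpoint, mitotic kinases and motors, and the cytokinesis machinery. In adult liver and fat nearly all hepatocytes and adipocytes are out of the cycle, and resident immune and stromal cells are among those that divide.

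Promoters of the 2 phases differ in short motifs. The stretches below belong to 5 of the 10 G2/M genes that DESeq2 called lower in KO liver, picked for the motifs they hold, and to Mcm6. Mcm6 is a G1/S gene that holds E2F sites, which most G1/S windows did not. Each is the 110 bases before the RefSeq start site (GRCm38.p6), written along the gene's strand in lower case. Capitals mark TTTGAA (the cell cycle genes homology region, CHR), CCAAT (bound by NF-Y) and TTTCCCGC or TTTGGCGC (forms of the E2F site), each searched on both strands, so that TTCAAA and ATTGG mark matches on the other strand.
Top2a (chr11:99024190-99024299, minus strand): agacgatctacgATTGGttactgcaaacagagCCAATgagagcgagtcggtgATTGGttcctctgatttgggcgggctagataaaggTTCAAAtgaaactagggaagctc
Cdk1 (chr10:69352913-69353022, minus strand): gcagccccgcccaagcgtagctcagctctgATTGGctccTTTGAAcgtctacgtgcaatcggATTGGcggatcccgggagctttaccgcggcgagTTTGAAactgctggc
Kif11 (chr19:37376272-37376381, plus strand): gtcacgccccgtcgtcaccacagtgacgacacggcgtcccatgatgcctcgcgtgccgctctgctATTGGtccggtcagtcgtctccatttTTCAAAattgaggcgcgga
Ube2c (chr2:164769819-164769928, plus strand): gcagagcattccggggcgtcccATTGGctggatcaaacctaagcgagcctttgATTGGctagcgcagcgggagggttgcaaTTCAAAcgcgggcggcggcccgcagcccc
Ccnb2 (chr9:70421555-70421664, minus strand): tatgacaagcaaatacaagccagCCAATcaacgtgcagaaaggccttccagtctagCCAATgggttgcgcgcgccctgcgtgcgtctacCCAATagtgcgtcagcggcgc
Mcm6 (chr1:128359706-128359815, minus strand): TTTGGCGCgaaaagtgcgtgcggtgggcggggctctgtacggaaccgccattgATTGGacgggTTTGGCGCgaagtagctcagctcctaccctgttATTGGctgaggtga

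Across windows from 250 bases before to 50 bases after the start site, RefSeq gave an entry for 37 of the 46 genes (24 G2/M genes with 26 windows and 13 G1/S genes with 15 windows). TTTGAA was in 21 of the 26 G2/M windows (80.8%), in 1 of the 15 G1/S windows (6.67%) and in 17.9% of all 32851 windows of the table. CCAAT was in 88.5% of G2/M windows, 73.3% of G1/S windows and 37.4% of all windows. The E2F forms were in 0 G2/M windows, in 6 G1/S windows (40%), that of Mcm6 among them, and in 1.56% of all windows. In 13 of the 19 G2/M genes with a TTTGAA match, a match began between 60 bases before and 20 bases after the start site. Of the genes that DESeq2 called lower in KO liver, Birc5 had a window without any of these motifs and Ccna2 had no window. Each motif was counted on its own, overlapping matches included, and a match is a description of the letters only.

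**Figure D1:**
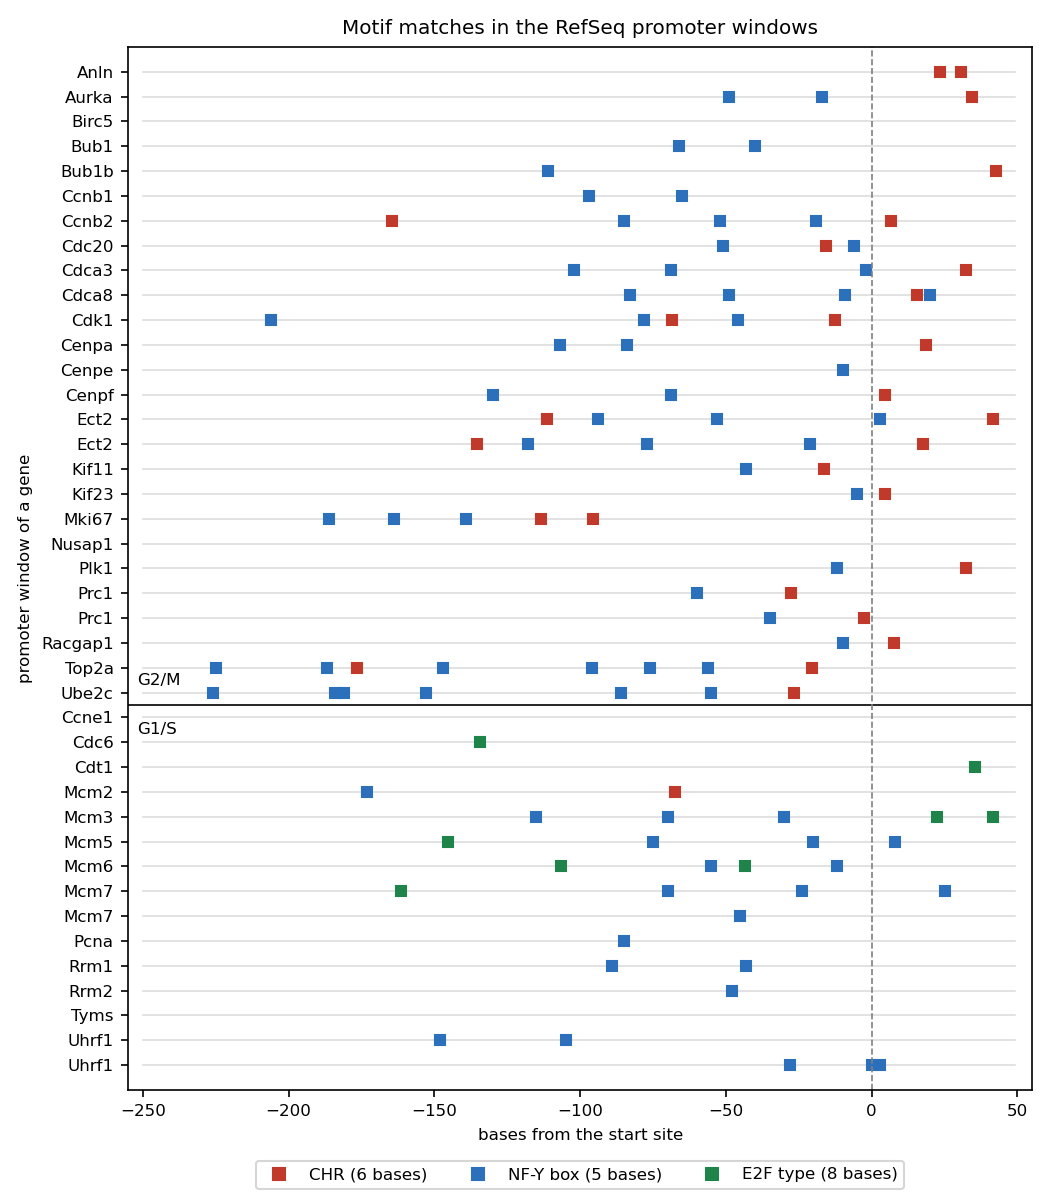
Matches of the CHR, NF-Y and E2F motifs (squares) by distance in bases from the start site (x axis) in each RefSeq promoter window (y axis, 1 row a window; G2/M genes above the line, G1/S genes below). CHR matches are in 21 of 26 G2/M windows and gather near the start site, while E2F matches are in 6 of 15 G1/S windows and in 0 G2/M windows.

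Total expected counts ran from 12.9 M to 20.8 M per library. Prkce, the targeted gene, was at 31.1 ± 5.58 CPM (counts per 1 M counts, on scaled library sizes) in KO fat against 50.5 ± 14.5 in WT fat, and at 11.1 ± 2.58 in KO liver against 14.3 ± 3.56 in WT liver (SD, n = 5 each). Neither difference passed edgeR's quasi-likelihood test (adjusted p = 0.671 and 0.409). The ranges of KO and WT fat did not overlap but nearly touched, with the highest KO library at 35.1 and the lowest WT library at 35.2 CPM. Some libraries held transcripts of other tissues: WT liver 2 and 4 skeletal muscle, WT liver 4 and 5 adipocyte, WT fat 4 and KO fat 3 hepatocyte, WT fat 2 and KO fat 2 skeletal muscle, and KO fat 2 also urothelium (chosen after their values were seen). The labelled tissues carried their defining markers, with all 8 hepatocyte markers called higher in WT liver and all 8 adipocyte markers called higher in WT fat by edgeR.

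The members are thinly counted in liver. Over the 5 WT liver libraries the median count of a G2/M gene ran from 11 (Plk1) to 169 (Mki67), with a median over the 30 genes of 27. In KO liver it ran from 1 (Bub1) to 138 (Cenpa), with a median of 16.5, and 18 of the 30 genes had a median under 20 counts against 8 in WT liver. The least covered in WT liver after Plk1 were Bub1 (12), Ccnb1 (13), Foxm1 (14), Cenpf (15), Cdc20 (16), Aurkb (17) and Tpx2 (19), then Cdca8 (20), Kif20a and Kif23 (23 each), Anln (24), Ccnb2 (25), Cenpe (26), Bub1b and Ube2c (27 each), Nusap1 and Prc1 (29 each) and Racgap1 (31). Aurka, Ccna2 and Cdk1 had 36 each, Cdca3 37, Birc5 38, Kif11 45, Ect2 48, Stmn1 81, Top2a 83 and Cenpa 108. The spread of raw counts between libraries was above counting error alone. Not scaled for depth, their SD was a median of 1.9 times the Poisson value for G2/M genes in WT liver and 1.5 times in KO liver.

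G1/S genes were counted more deeply, with a median of 82 counts over the 16 genes in WT liver and 76 in KO liver. In WT liver their median counts were 9 for Cdc6, 27 for Uhrf1, 29 for Ccne1, 44 for Ccne2, 46 for Mcm5, 52 for Cdt1 and 59 for Mcm2. Gins2 and Mcm3 had 82 each, Tyms 91, Mcm4 92, Mcm6 118, Rrm2 127, Mcm7 157, Rrm1 227 and Pcna 397. In fat the depth was higher for both phases, with a median of 92 counts per G2/M gene in WT and 91.5 in KO, and of 162 and 142.5 per G1/S gene. No member had a median under 33 counts in any fat group.

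Per kilobase of the longest annotated transcript (GENCODE M21), Pcna was the most abundant member in WT liver at 16.1 ± 1.94 CPM per kb (SD, n = 5). Next came Stmn1, which encodes the microtubule-destabilising stathmin, at 4.52 ± 0.729, and Mcm7 at 3.79 ± 0.711. Within the G2/M genes the histone variant Cenpa followed at 1.76 ± 0.314, and the kinetochore protein Cenpf was lowest at 0.128 ± 0.0671. The origin licensing factor Cdc6 was the lowest G1/S gene at 0.137 ± 0.0415. The median over genes was 0.503 CPM per kb for G2/M and 1.48 for G1/S genes in WT liver, and 2.84 and 4.47 in WT fat.

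In liver, G2/M genes lay lower in KO than in WT mice, and 0 of the 46 members passed the test after adjustment over all genes. Of 30 G2/M genes, 28 passed the filter on low counts and were tested, 27 of them lay lower in KO (50% of all genes tested did), and 24 had an unadjusted p under 0.05 in that direction (10 where all 20 libraries shared 1 fit). Over all 13298 genes tested, 6.69% were lower and 6.62% higher at that p, and 1 gene (0.00752%), no member, was called at adjusted p under 0.05. The median log2 difference was -0.95 over the 28 genes and 0.000106 over all genes tested. With the 2 G2/M genes under the filter (Ccnb1 and Bub1) included, 29 of 30 lay lower, with a median of -0.94. The smallest adjusted p of a member was 0.112 (edgeR's quasi-likelihood test with Benjamini-Hochberg adjustment). Fewer dividing cells and less RNA per dividing cell cannot be told apart in such bulk libraries.

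Tools differed on the call. DESeq2 called 10 G2/M members lower in KO liver, where it called 0.564% of genes in that direction, and edgeR and limma-voom called 0. Limma-voom was run with quality weights here and below. The 10 were Top2a (DESeq2 adjusted p = 0.000506), Prc1 (0.00136), Mki67 (0.00406), Ccnb2 (0.0122), Cenpf (0.0192), Kif11 (0.0343), Birc5 (0.0388), Ube2c (0.0388), Ccna2 (0.0458) and Cdk1 (0.0494). Without WT liver 2 and 4, which held skeletal muscle transcripts, 24 G2/M genes lay lower at an unadjusted p under 0.05 and Top2a was called (adjusted p = 0.0271), and without WT liver 4 and 5, which held adipocyte transcripts, 26 did so and Top2a and Mki67 were called (adjusted p = 0.0315 each). Leaving out WT liver 4 alone gave an edgeR adjusted p of 0.0135 for Top2a, and leaving out KO liver 3 gave 0.0366 for Prc1. Within their groups WT liver 4 was the lowest library for 20 of 30 G2/M genes and KO liver 3 the highest for 13. Leaving out either widens the gap between the groups for those genes, so these calls are no independent support.

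**Figure D2:**
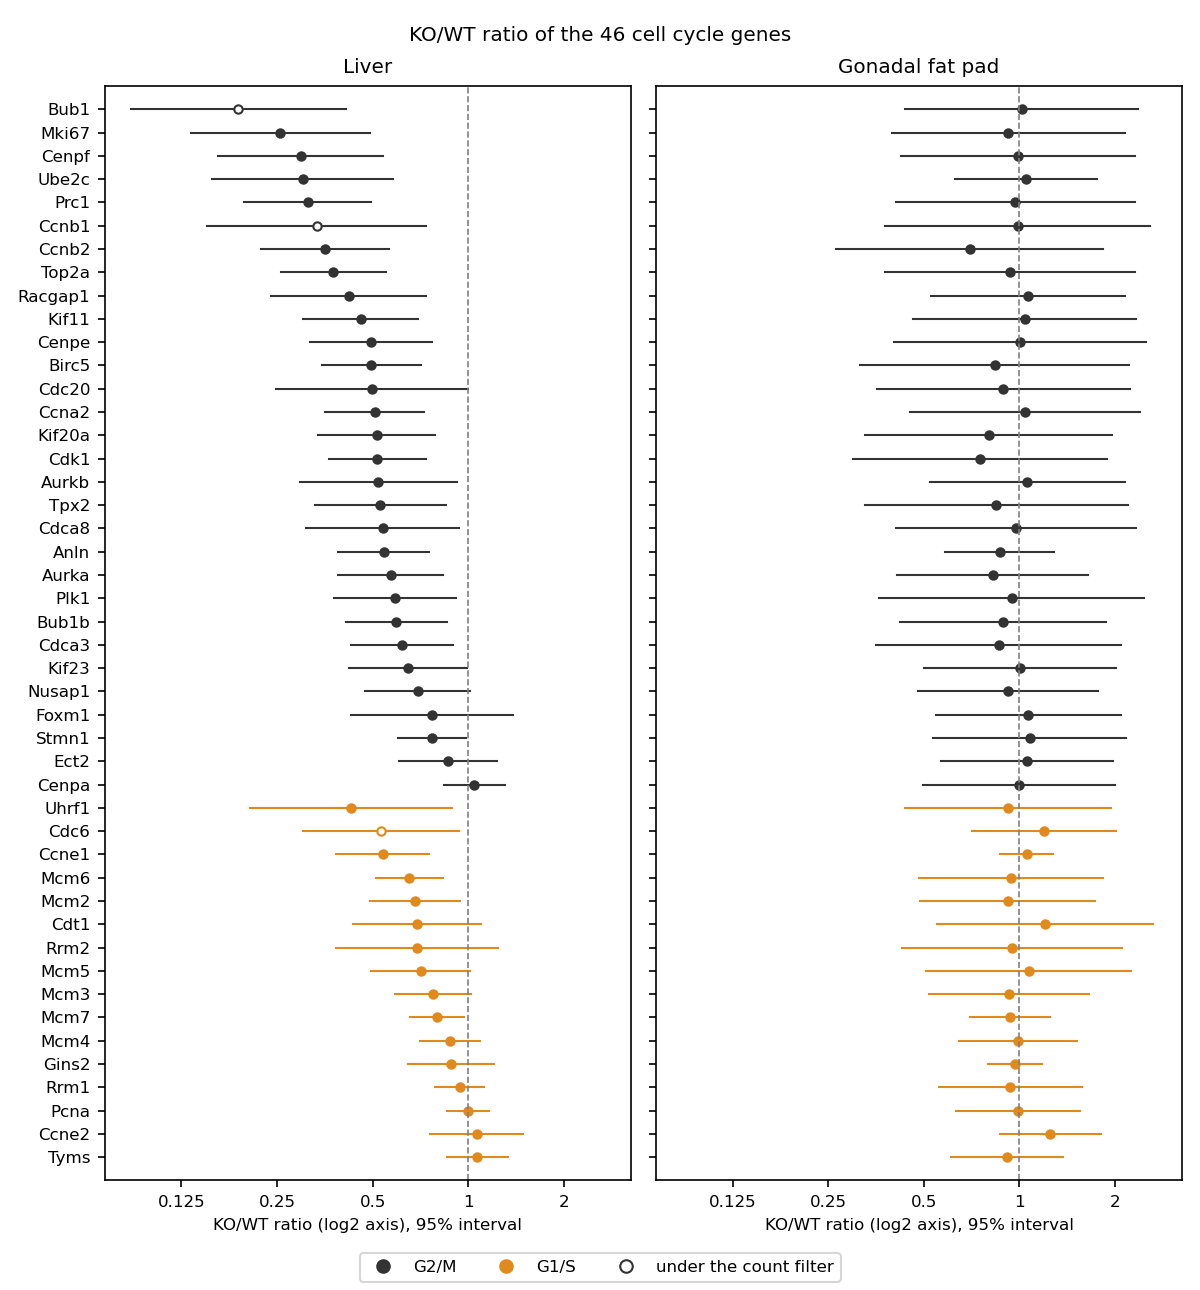
KO/WT ratio of each gene on a log2 axis (points) with its 95% interval (lines) in liver and in gonadal fat, G2/M genes in black and G1/S genes in orange, ordered by the liver ratio within a phase; open points are genes under the count filter. In liver 29 of 30 G2/M points lie below 1, and in fat all 46 intervals cross 1.

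Among the regulators of mitotic entry, Ccnb2, which encodes cyclin B2, was at 1.16, 1.78, 2.12, 0.892 and 1.54 CPM in WT liver 1 to 5 and at 0.811, 0.439, 0.332, 0.585 and 0.475 in KO liver 1 to 5. All KO libraries were below all WT libraries, with a KO/WT ratio of 0.355 (95% interval 0.223 to 0.564; adjusted p = 0.175). A processed copy, Ccnb2-ps, carried a mean of 17.6 counts against 54.2 for Ccnb2, so the split of reads between them is uncertain.

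Cdk1, the kinase that cyclins A and B activate, was at 2.08, 3.02, 1.97, 1.44 and 2.59 CPM in WT and 1.37, 0.987, 0.949, 1.04 and 1.43 in KO liver. Its highest KO library lay just under its lowest WT library, and the ratio was 0.517 (0.364 to 0.735; adjusted p = 0.202). Ccna2, cyclin A2, overlaps Exosc9 on the other strand (mean of 260 counts against 123 for Ccna2). Ccna2 was at 1.56, 3.45, 2.63, 1.99 and 2.59 CPM in WT and 1.52, 1.15, 0.997, 1.04 and 1.48 in KO. The ranges were again apart, by a narrow gap, with a ratio of 0.507 (0.355 to 0.726; adjusted p = 0.202). For each of these 3 genes the two-sided exact permutation test over 252 assignments gave p = 0.00794, the smallest that 5 against 5 libraries allow. Ccnb1, cyclin B1, was under the count filter, and its WT and KO ranges overlapped (1.04 ± 0.596 and 0.365 ± 0.393 CPM).

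Of the chromosome and kinetochore genes, Top2a, the topoisomerase that untangles sister chromatids, had the smallest p of all members (chromosome 11, 98992943 to 99024189). It was at 4.81, 5.67, 7.23, 2.19 and 4.63 CPM in WT liver and at 1.62, 2.08, 1.9, 2.14 and 1.48 in KO liver. WT liver 4 stood close to the KO libraries and the other WT libraries were far above, and the ratio was 0.376 (0.257 to 0.55; adjusted p = 0.112). Mki67, the proliferation marker that coats mitotic chromosomes, was at 9.78, 25.8, 25.1, 6.38 and 8.28 CPM in WT and 3.75, 3.18, 4.98, 4.03 and 3.33 in KO. KO libraries were tightly grouped below WT libraries that spread over a wide range, with the lowest ratio of the tested members, 0.256 (0.134 to 0.492; adjusted p = 0.202). Cenpf, a kinetochore protein, was at 0.868, 2.21, 2.26, 0.892 and 0.865 CPM in WT and 0.304, 0.439, 0.712, 0.325 and 0.264 in KO, without overlap, at a ratio of 0.297 (0.163 to 0.54; adjusted p = 0.199). Birc5, the survivin subunit of the chromosomal passenger complex, was at 1.68, 2.1, 2.77, 1.58 and 2.41 CPM in WT and 1.12, 1.32, 0.807, 0.715 and 1.22 in KO. Its ranges did not overlap either, and its ratio was 0.496 (0.347 to 0.708; adjusted p = 0.202).

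Bub1, a spindle checkpoint kinase, was under the count filter with 0 to 5 counts per KO library and 5 to 18 per WT library. Its level was 1.04, 0.647, 0.876, 0.343 and 0.371 CPM in WT and 0.203, 0.0548, 0.237, 0 and 0.0528 in KO liver. The groups did not overlap, and its ratio without the filter was 0.189 (0.0866 to 0.413; adjusted p = 0.131). Cenpa, the histone variant that marks centromeres, went the other way at a ratio of 1.05 (0.838 to 1.31).

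For the spindle and cytokinesis genes, Prc1, which bundles midzone microtubules, was at 1.68, 2.05, 2.19, 1.99 and 1.36 CPM in WT liver and 0.558, 0.439, 1.09, 0.26 and 0.423 in KO liver. The groups did not overlap, and the ratio was 0.312 (0.197 to 0.495; adjusted p = 0.112). Kif11, the motor that separates the poles, was at 2.61, 4.05, 4.89, 1.71 and 2.47 CPM in WT and 1.32, 0.987, 1.85, 1.75 and 1.27 in KO. Here WT liver 4 lay within the KO range, and the ratio was 0.458 (0.302 to 0.695; adjusted p = 0.202). Ube2c, the ubiquitin enzyme of the anaphase-promoting complex, was at 1.56, 1.83, 2.34, 0.48 and 0.741 CPM in WT and 0.406, 0.384, 0.712, 0.13 and 0.37 in KO. WT liver 4 lay below KO liver 3, at a ratio of 0.301 (0.156 to 0.58; adjusted p = 0.202). On the other strand Prc1 overlaps Rccd1 (mean of 116 counts against 108 for Prc1), and Ube2c overlaps the muscle gene Tnnc2 (112 against 61.2 for Ube2c).

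Separate WT and KO ranges with KO lower were found in 10 of the 28 tested G2/M genes and, with Bub1, in 11 of all 30, against 1.28% of all genes tested. The other members with separate ranges were Anln, an actin-binding protein of the cleavage furrow, at a ratio of 0.542, and Plk1, a mitotic kinase, at 0.588. Apart from these and from Kif11, Ube2c and Cenpa, given above with overlapping ranges or a higher level in KO, the tested G2/M genes had ratios from 0.42 (Racgap1) to 0.863 (Ect2). Among them were the kinases Aurka and Aurkb, the motors Kif20a and Kif23 and the cytokinesis regulators Racgap1 and Ect2. Foxm1, which encodes the factor that drives this gene set, was at 0.674 ± 0.334 CPM in KO and 0.864 ± 0.253 in WT liver, with overlapping ranges and an interval of its ratio from 0.427 to 1.39.

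G1/S genes differed less between KO and WT liver. Of the 16, 15 were tested and 13 lay lower in KO (50% of all genes tested did). In that direction 5 had an unadjusted p under 0.05 (6.69% of all genes tested did), and 1 had separate ranges (1.28%). That count of 5 was 2 without WT liver 2, 2 without WT liver 2 and 4, and 1 where all 20 libraries shared 1 fit. The median log2 difference was -0.37, and the smallest adjusted p was 0.202. Ccne1, cyclin E1, which pushes cells into S phase, was at 1.62, 2.21, 2.48, 1.58 and 1.79 CPM in WT liver and 1.12, 0.877, 1.28, 1.17 and 0.74 in KO liver. It was the G1/S gene whose groups did not overlap, with a ratio of 0.538 (0.384 to 0.755; adjusted p = 0.202; exact permutation p = 0.00794).

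Among the subunits of the Mcm replicative helicase, Mcm6 was at 6.54, 8.42, 8.76, 8.09 and 5.99 CPM in WT and 4.31, 5.37, 3.7, 5.07 and 6.23 in KO liver. KO liver 5 lay above WT liver 5, and the ratio was 0.653 (0.512 to 0.833; adjusted p = 0.208). Mcm2 was at 2.84, 5.4, 5.11, 3.02 and 3.64 CPM in WT and 2.38, 2.74, 3.61, 2.79 and 2.06 in KO, with overlap at a ratio of 0.681 (0.492 to 0.942; adjusted p = 0.31). Mcm7 was at 9.55, 14.7, 11.4, 10.7 and 9.7 CPM in WT and 8.98, 9.16, 8.35, 10 and 8.19 in KO, overlapping at a ratio of 0.796 (0.655 to 0.967; adjusted p = 0.312). Mcm7 shares its locus with Cops6 and Ap4m1 on the other strand, and the labels and notes do not say whether the counting used strand. Mcm3, Mcm4 and Mcm5 had ratios of 0.775, 0.875 and 0.708, with intervals that reached past 1.

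Uhrf1, which carries DNA methylation through replication, was at 1.1, 2.7, 1.97, 1.44 and 2.29 CPM in WT and 0.355, 0.822, 1.71, 1.1 and 0.0528 in KO liver. KO liver 5 held 1 count of it and KO liver 3 lay inside the WT range, at a ratio of 0.427 (0.206 to 0.889; adjusted p = 0.321). Rrm2, the regulated subunit of ribonucleotide reductase, reached 12.9 CPM in KO liver 1, above all WT libraries, and stood at 2.96 to 4.33 in the other KO libraries against 5.27 to 9.27 in WT. Pcna (ratio 0.996, 0.855 to 1.16), Rrm1 (0.94, 0.788 to 1.12), Tyms (1.07, 0.854 to 1.34) and Ccne2 (1.06, 0.76 to 1.49) were near 1. Cdc6, under the filter, was at 0.35 ± 0.159 CPM in KO and 0.657 ± 0.199 in WT liver, with overlap.

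Summed over the 30 genes, G2/M transcripts made up 66.5, 92.2, 100.4, 46 and 66.2 CPM in WT liver 1 to 5 and 39.6, 36.4, 43.3, 37.7 and 35.9 in KO liver 1 to 5. The KO sums were nearly equal, 38.6 ± 3.02 (SD, n = 5), and lay below all WT sums, 74.3 ± 22, of which WT liver 4 was closest. The 16 G1/S genes summed to 98.2, 118, 113, 96.4 and 98.4 CPM in WT and 92.1, 87.1, 90.5, 89.9 and 86 in KO, also without overlap but with a smaller gap. The ratio of G2/M to G1/S counts, which does not depend on library scaling, was 0.677, 0.783, 0.885, 0.477 and 0.673 in WT and 0.43, 0.418, 0.479, 0.42 and 0.417 in KO, so that KO liver 3 and WT liver 4 were level.

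**Figure D3:**
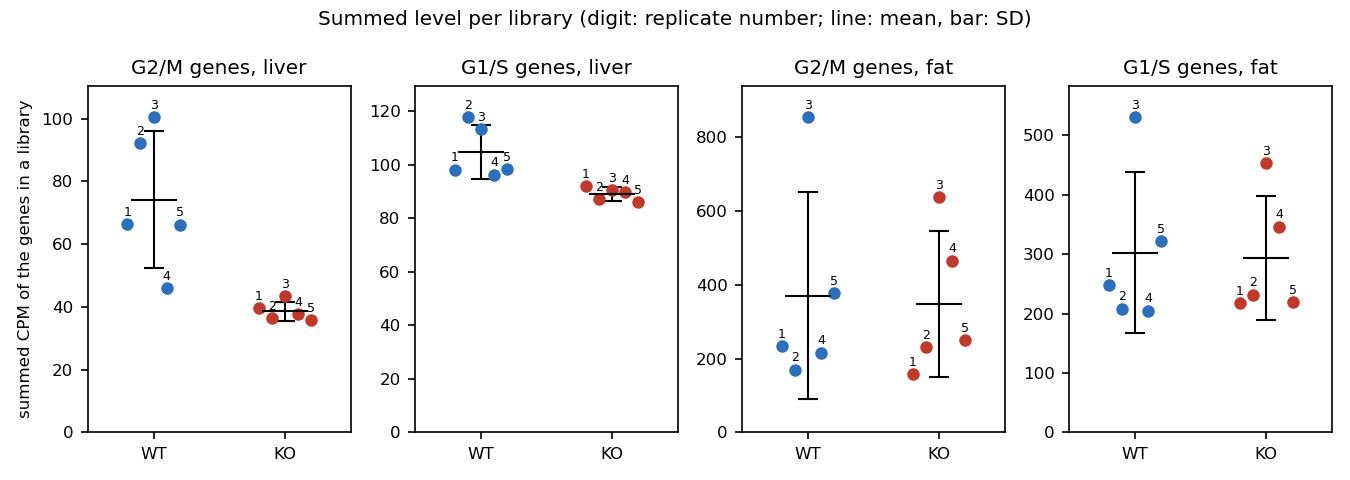
Summed CPM of the 30 G2/M and 16 G1/S genes in each library (points, digit is the replicate number) with the mean (line) and SD (bar) of 5 libraries. In liver the KO sums of both phases lie below all WT sums, and in fat WT 3, KO 3 and KO 4 hold the highest G2/M sums, at 853, 637 and 465 CPM.

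Markers of some other cells also lay lower in KO liver. Summed CPM of 12 macrophage and Kupffer cell markers was 1136, 1026, 794, 569 and 698 in WT liver 1 to 5 and 552, 572, 670, 564 and 467 in KO liver 1 to 5. WT liver 4 and KO libraries overlapped, all 12 markers lay lower in KO, 11 of them at an unadjusted p under 0.05 and 0 after adjustment by edgeR, and 4 were called by DESeq2. Of all genes tested in liver 50% lay lower in KO, 6.69% did so at that p, and DESeq2 called 0.564% lower. No marker of this list was at 0: the pan-macrophage marker Adgre1 was at 21 to 49 CPM and the Kupffer cell lectin Clec4f at 112 to 221. The 8 erythroid markers summed to 329.6 to 989 CPM in WT and 207 to 490 in KO liver, with 7 of 8 lower in KO, 4 of them at an unadjusted p under 0.05. Their sum was highest in WT liver 2 and WT liver 3, the libraries with the highest G2/M sums. T and NK cell markers summed to 3.7 to 11.5 CPM in WT and 6.2 to 9.88 in KO liver, and endothelial markers to 274 to 322 and 262 to 310.5. Markers of neutrophils and their progenitors were sparse, at a sum of 3.58 to 10.5 CPM in WT and 0.913 to 6.83 in KO liver. Of these 8 markers 2 passed the filter. Without it all 8 lay lower in KO, 2 of them at an unadjusted p under 0.05 (4.86% of all genes without the filter). Markers of B and plasma cells (6 of 7 tested) and of mesothelium (4 of 4 tested) lay higher in KO liver, 0 of them at an unadjusted p under 0.05. Of 8 hepatocyte markers 6 lay lower in KO liver, 1 at an unadjusted p under 0.05, and DESeq2 called 1. The part of these cells in the lower G2/M values was not tested.

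**Figure D4:**
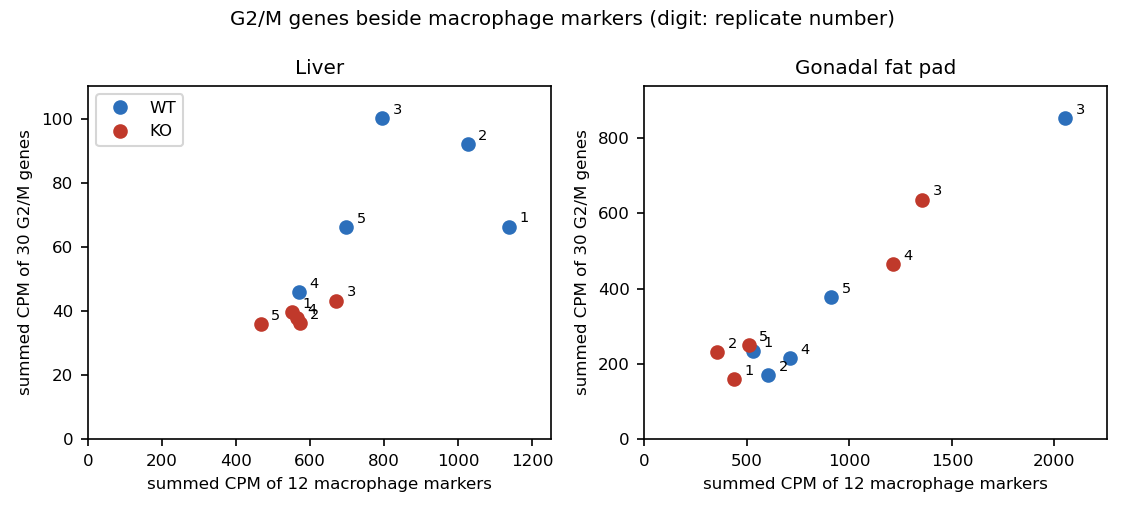
Summed CPM of 30 G2/M genes (y axis) against summed CPM of 12 macrophage markers (x axis), 1 point per library (digit is the replicate number; WT blue, KO red), in liver and in fat. In liver WT 4 lies next to the KO libraries on both axes, and in fat WT 3, KO 3 and KO 4 are the highest on both.

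Of 65 other mitotic genes, 36 were tested in liver, 26 lay lower in KO and 12 had an unadjusted p under 0.05 in that direction, 2 in the other, and 0 passed after adjustment. Their median log2 difference was -0.25. Without the filter, which removed 29 of the 65, 55 lay lower, 31 of them at an unadjusted p under 0.05 against 3 higher, and the median was -0.61; 4.86% of all genes were lower at that p without the filter. Iqgap3, a scaffold of proliferating cells, was at 0.259 ± 0.187 CPM in KO and 0.89 ± 0.178 in WT, without overlap (ratio 0.304, adjusted p = 0.202). Such separate ranges with KO lower were found in 1.28% of all genes tested. The centrosomal kinase Nek2 had a ratio of 0.507 (adjusted p = 0.221) and the spindle pole protein Aspm of 0.535 (adjusted p = 0.239). Of 45 other replication genes, 41 were tested and 21 lay lower, with a median of -0.01; at that p, 2 lay lower and 3 higher. The smallest p of that list were those of Clspn, the replication checkpoint adaptor, at a ratio of 0.428, the single-strand binding subunit Rpa3 at 1.42 and the chromatin assembly subunit Chaf1b at 0.65.

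Among 20 genes for E2F, retinoblastoma and DREAM proteins, 19 were tested in liver and 10 lay lower, with a median of -0.01. Of the 20, 2 had separate ranges with KO lower, as 1.28% of all genes tested did, and 1 with KO higher. Mybl2, which encodes B-Myb, was at 0.546 ± 0.153 CPM in KO and 1.01 ± 0.228 in WT, without overlap (ratio 0.542, adjusted p = 0.244). The repressor E2f4 was at 12.4 ± 1.19 against 15.4 ± 1.59, without overlap (adjusted p = 0.248), and Rbl2, the p130 pocket protein of DREAM, at 68.2 ± 5.67 against 55.3 ± 5.38 with overlap (adjusted p = 0.229). Among 18 G1 cyclins, their kinases and inhibitors, 16 were tested and 6 lay lower, with a median of 0.15. Ccng1 (ratio 1.24), Cdk6 (1.2) and Cdk7 (1.22) had the smallest p there, and 0 genes of these 4 lists passed after adjustment or were called by DESeq2 in liver.

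In the gonadal fat pad the members did not separate by genotype. All 46 were tested, 0 had an unadjusted p under 0.05, where 3.72% of 14707 genes were lower and 3.62% higher at that p, and 0 genes of the whole fit (0%) were called at adjusted p under 0.05. The median log2 difference was -0.04 for G2/M and -0.06 for G1/S genes, with 19 of 30 and 11 of 16 lower in KO, where 49.8% of all genes were. These counts turned with the library and the fit: 0 and 0 lay lower without WT fat 3, and 30 and 13 without KO fat 3. They were 1 and 0 with limma-voom, whose quality weights let libraries count unequally. Intervals were wide: Top2a, for one, had a ratio of 0.931 with an interval from 0.376 to 2.31. The G2/M median was 0.51 without WT fat 3, -0.42 without KO fat 3, -0.58 without WT fat 4 and KO fat 3, which held hepatocyte transcripts, and -0.14 without WT fat 2 and KO fat 2, the pair highest in skeletal muscle markers, of which WT fat 2 was the lowest WT library for 23 of 30 G2/M genes.

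Within each genotype the fat libraries spread widely. Cdk1 was at 8.68, 6.05, 34.1, 5.97 and 15.3 CPM in WT fat 1 to 5 and at 2.49, 8.04, 21.1, 13.3 and 7.67 in KO fat 1 to 5, a 13.7-fold range over 10 libraries (KO/WT ratio 0.751, 0.299 to 1.89; adjusted p = 0.892). Ccnb2 spanned an 11.6-fold range, at 3.25, 2.87, 19.2, 3.98 and 7.81 CPM in WT and 1.66, 2.59, 9.35, 8.66 and 3.39 in KO (ratio 0.697, 0.264 to 1.84; adjusted p = 0.868). WT fat 3 was the highest of the 10 libraries for both genes, and KO fat 3 the highest KO library. Anln varied less, at 16.6, 15.4, 34.8, 21.2 and 22.2 CPM in WT and 15.4, 13.1, 24, 26.7 and 16.1 in KO (ratio 0.866, 0.582 to 1.29; adjusted p = 0.872).

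WT fat 3 held the highest level of all 30 G2/M genes and of 13 of 16 G1/S genes. WT fat 3, KO fat 3 and KO fat 4 were the 3 highest libraries for 26 of 30 G2/M genes (86.7%) and 9 of 16 G1/S genes (56.2%), against 6.87% of all genes tested. These 3 libraries were picked after the members' values were seen, so the shares are a description and no test. Their G2/M sums were 853, 637 and 465 CPM, and those of the other libraries were 158 to 378. The G1/S sums had the same 3 libraries on top, at 529.9, 453 and 346 CPM, with 205 to 321 in the others.

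The same libraries were highest for 7 of 12 macrophage markers. Cd68, a lysosomal marker of macrophages, was at 27.5, 31.6, 247, 38.7 and 51.1 CPM in WT fat and 21.1, 15.3, 201, 163 and 25.8 in KO fat. The marker sum was 531, 605, 2051, 709 and 911 CPM in WT and 437, 357, 1355, 1212 and 510.2 in KO, with Clec4f, which marks Kupffer cells, at 0 to 0.835 CPM. Stromal markers summed to 13010 CPM in WT fat 3 and 3683 to 7932 in the other libraries. The part of these cells in the members' levels was not tested.

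**Figure D5:**
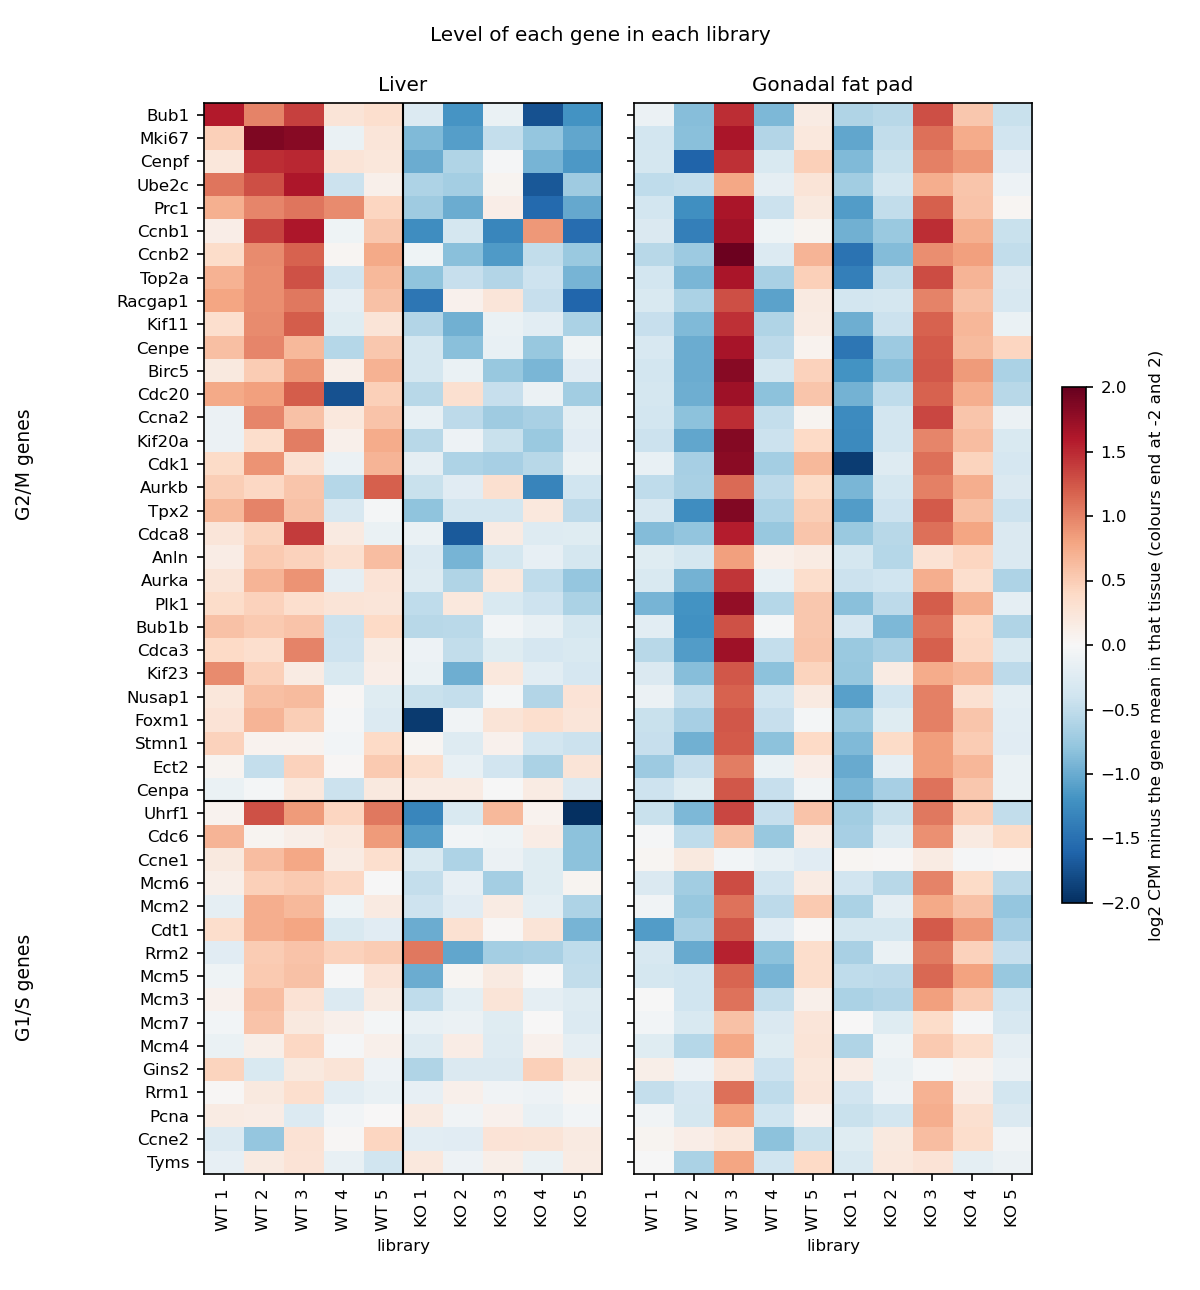
Colour gives log2 CPM of each gene (rows) in each library (columns) minus the gene's mean in that tissue, from blue (-2) to red (2), with G2/M genes above the black line and G1/S genes below. In liver the WT columns are mostly red over the G2/M rows, except that of WT 4, which is pale and more often blue than red. In fat the columns of WT 3, KO 3 and KO 4 are mostly red over both phases.

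The G1/S genes with the smallest p in fat were Ccne2, Cdc6 and Ccne1. Ccne2, cyclin E2, was at 6.28, 6.65, 7.09, 3.34 and 4.4 CPM in WT and 5.05, 6.88, 9.28, 7.69 and 5.73 in KO fat (ratio 1.25, 0.866 to 1.8; adjusted p = 0.765). It overlaps Ints8 on the other strand (mean of 388 counts against 71.4 for Ccne2). Cdc6 was at 3.74, 2.63, 5.77, 2.18 and 4.2 CPM in WT and 2.33, 3.13, 7.29, 4.33 and 5 in KO (ratio 1.2, 0.708 to 2.02; adjusted p = 0.881). Ccne1 was at 6.49, 7.24, 6.11, 5.72 and 5.38 CPM in WT and 6.48, 6.4, 7.14, 6.21 and 6.38 in KO (ratio 1.05, 0.868 to 1.28; adjusted p = 0.912). Groups overlapped for all 3, and Ccne1 had the narrowest range of the 46 members in fat, 1.35-fold, and WT fat 3 was not among its 3 highest libraries.

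Other cell cycle genes in fat included 2 that other tests or ranges set apart. Cdkn1a, the p21 inhibitor of cyclin kinases, was at 21.9, 30.7, 41.5, 28.4 and 29.3 CPM in WT and 70.6, 69.9, 36.6, 46.4 and 63.4 in KO fat. KO fat 3 alone lay within the WT range, and the ratio of 1.89 (1.37 to 2.61) did not pass edgeR's test (adjusted p = 0.671) and was called by DESeq2 (adjusted p = 0.041), which called 0.0408% of genes higher in KO fat. Pttg1, securin, which blocks the separation of sister chromatids until anaphase, was at 14.6 ± 5.11 CPM in WT and 26.7 ± 1.69 in KO fat without overlap, as 0.592% of genes were with KO higher (ratio 1.83, adjusted p = 0.671). By list, the unadjusted p was under 0.05 in 0 of 44 tested replication genes, 1 of 64 mitotic genes (Pttg1), 1 of 20 E2F and DREAM genes (Lin54, ratio 1.26) and 2 of 17 G1 cyclin genes (Cdkn1a and Ccng1), all higher in KO. Of all genes tested in fat, 3.62% were higher and 3.72% lower in KO at that p. The replication genes with the smallest p were Gins1 (ratio 0.762), Pold2 (0.839) and Orc4 (1.17).

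An interaction term over all 20 libraries compared the KO/WT ratio of fat with that of liver. It was positive (as for 50.8% of all genes), meaning a higher KO/WT ratio in fat than in liver, for 29 of 30 G2/M genes, with a median of 0.78 on the log2 scale, and for 13 of 16 G1/S genes, with a median of 0.33. None of 15652 genes (0%) was called by edgeR at adjusted p under 0.05, DESeq2 called 2 genes (0.0128%, both lower) and 0 members, and 5 G2/M and 2 G1/S members had an unadjusted p under 0.05 in that direction, where 2.96% of all genes did. Without WT fat 3 the medians were 1.44 for G2/M and 0.67 for G1/S genes, and without KO fat 3 they were 0.49 and 0.13. The smallest p was that of Ccne1, with a difference of 0.96 ± 0.24 (SE) on the log2 scale (adjusted p = 0.638). Ube2c followed at 1.81 ± 0.59 and Bub1 at 2.46 ± 0.87 (edgeR adjusted p = 0.851 for both). No member's KO effect was thus shown to differ between the tissues.

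Between tissues of WT mice, most members were higher in fat than in liver. With both tissues scaled together, 22 of 30 G2/M genes and 10 of 16 G1/S genes were higher in fat than in liver at edgeR adjusted p under 0.05 and 0 were lower, where 38.5% of 14739 genes were called higher and 35.9% lower. The median log2 difference was 1.67 for G2/M and 0.84 for G1/S genes, and 0.04 for all genes. Anln led with 15.9 ± 5.71 CPM in fat against 2.33 ± 0.315 in liver, a 6.82-fold rise (4.78 to 9.71; adjusted p = 6.84e-07). Foxm1 rose 5.93-fold (3.17 to 11.1; adjusted p = 0.000146), and Gins2, a subunit of the replicative helicase, 2.05-fold (1.58 to 2.66; adjusted p = 0.000192). Gins2 overlaps Gse1 and Gm20388 on the other strand (means of 294 and 920 counts against 204 for Gins2). Neither Pcna (1.26-fold, 0.906 to 1.76), Mki67 (1.96-fold, 0.822 to 4.68) nor Cenpa (0.937-fold, 0.569 to 1.54) passed the test. Without WT fat 3, the library high in all G2/M genes, the G2/M median was 1.06.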

How the data were processed

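The notes that the submitters gave on processing list Trim Galore 0.2.8, RSEM 1.2.12, STAR 2.4.0d and DESeq2, with GRCm38 as the genome build. Per the labels' protocols RNeasy kits (Qiagen) gave the RNA and a stranded TruSeq kit (Illumina) the mRNA libraries. Gene values as deposited by the authors are unnormalized expected counts, and they were rounded to whole numbers here. No source used here names the annotation release or says whether counting used strand, so a gene and its antisense partner cannot be told apart. Members whose antisense partner had the higher mean count were Ccne2, Mcm7, Gins2, Prc1, Ccna2, Cdc20, Kif20a, Ube2c and Cdca8.

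The members and gene lists were chosen with earlier results of these data known. Genes with low counts were removed with filterByExpr (minimum count 10, minimum total 15), TMM scaled the libraries, and groups were compared with edgeR 4.0.16 (robust quasi-likelihood test in its current form; limma 3.58.1, R 4.3.3). P-values were adjusted by Benjamini-Hochberg over all genes and called under 0.05. Exact permutation tests, two-sided, used log2 CPM with a prior count of 2 and all 252 ways to split 10 libraries into equal groups. CPM was scaled within a tissue, and CPM per kb used the longest annotated transcript. The fits were tested on simulated counts.

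With 5 mice per group, no 2 libraries of a group differed as little as counting error would allow (lowest chi-square 15.9 per degree of freedom), and none was merged. Genes given in full were, by rule, the 8 G2/M and 5 G1/S genes of smallest p in liver, 3 of each in fat, 3 of the interaction, the 2 highest and the lowest per length of each phase, any that an alternative called, and the 3 of smallest p in each further list. Ccnb1, Rrm2, Foxm1, the genes named between fat and liver of WT mice and the single markers lie outside this rule and were chosen after their values were seen. Alternatives were RLE and upper quartile scaling, DESeq2 1.42.0, limma-voom, other low-count filters, 1 fit of all 20 libraries, a replicate block, and leaving out libraries singly. Chosen after seeing the data were edgeR's older quasi-likelihood form, which had been the first choice and gave way to the current form because that matched earlier totals for these data (either called 0 members between KO and WT), and leaving out each pair of libraries with transcripts of another tissue.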

Additional observations from a re-analysis of the deposited data

Results flagged for a closer look

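In KO fat the Ccne1 level in replicate 3, 7.14 CPM, stood apart from the other 4 libraries, of which the nearest was at 6.48, by 0.711 of the group's range. It was the 1 such case among 52 sets of 5 libraries examined, and chance alone sets about 1 set in 20 apart in this way.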

How the results depend on the processing

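At this depth, with median counts of 27 per G2/M gene in WT liver and 16.5 in KO liver, single members carry a large counting error. The number of genes called in liver was 1 with edgeR and 137 with DESeq2, 3 with limma-voom, 2 with all 20 libraries in 1 fit, 4 without the pair with skeletal muscle transcripts, 11 without the pair with adipocyte transcripts and 0 to 4 with a library left out. G2/M members called there were 0, but 10 with DESeq2, 1 and 2 without these pairs and 0 to 1 with a library left out. Both pairs held WT liver 4, the lowest WT library for 20 of 30 G2/M genes. G2/M members lower at an unadjusted p under 0.05 were 24, 10 with all 20 libraries in 1 fit, and 21 to 26 with a library left out. For G1/S members this was 5, 1 with all 20 libraries in 1 fit, 2 without the muscle pair and 2 (without WT 2) to 7 with a library left out. DESeq2 called 13 genes in fat and 2 for the interaction, where edgeR called 0. The median over G2/M members in liver kept its sign in every alternative run, from -1.06 to -0.86 with a library left out, under RLE (-0.95) and upper quartile scaling (-0.97). In fat the G2/M median was -0.04, 0.39 with limma-voom, and -0.42 to 0.51 with a library left out. The interaction median of G2/M members was 0.49 to 1.44 and the WT fat against liver median 1.06 (without WT fat 3) to 1.84 with a library left out. In fat 19 G2/M and 11 G1/S members lay lower, but 0 and 0 without WT fat 3 and 1 and 0 with limma-voom with quality weights, so that nearly all of those changed sign. Of the 6 fat members named in full, those that changed sign were Ccnb2 and Anln with limma-voom (0.068 and 0.046), Cdc6 without the hepatocyte pair (-0.14), and with a library left out Ccnb2 (-0.84 to 0.21), Anln (-0.36 to 0.018) and Cdk1 (-0.82 to 0.23). The cause of these shifts was not tested.

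The replicate number was shared between groups, but the labels do not say that it marks a shared animal or batch, and deviations of same-numbered KO and WT libraries correlated from -0.23 to 0.25 in liver and -0.17 to 0.5 in fat. A library correlated best with its own number in 1 of 5 pairs in liver and 3 of 5 in fat. With the number as a block, 1 gene was called in liver, 0 in fat and 0 for the interaction, and 22 G2/M members and 6 G1/S members lay lower in liver at an unadjusted p under 0.05. Between fat and liver of WT mice the block gave 10535 genes instead of 10965, and 9 G1/S members instead of 10, with 22 G2/M members in both; no member's call between KO and WT changed.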

Other observations

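Pttg1, which encodes securin, is one of the other mitotic genes and no member; its level lay higher in KO in both tissues (it was chosen for liver after its values were seen). In liver it was at 11.3, 13.7, 11.8, 11.9 and 2.35 CPM in WT 1 to 5 and at 22.2, 19.6, 18, 20.1 and 14.8 in KO 1 to 5. In fat it was at 17.1, 15.5, 18.8, 15.9 and 5.78 CPM in WT and 27.4, 25.1, 25.5, 26.4 and 29.3 in KO. The groups did not overlap in either tissue and WT 5 was the lowest library in both. In fat 0.592% of all genes tested had separate ranges with KO higher. In liver 1.28% had separate ranges with KO lower, and the share with KO higher is not given here. The labels do not say whether fat and liver of the same number came from 1 mouse. The KO/WT ratio was 1.86 in liver (edgeR adjusted p = 0.338) and 1.83 in fat (adjusted p = 0.671).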
